A study of Cavia porcellus with 28 samples.

Results

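The genes described here are 66 of the 26855 gene IDs counted in guinea pig cortex, and their mean levels lay at least 2-fold apart between Hartley and Pigmented animals at both ages sampled. They were chosen by these measured levels: an ID was kept if its mean over 28 libraries was at least 0.5 CPM (counts per 1000000 counts of the library) and if log2(mean CPM Hartley / mean CPM Pigmented) was at least 1 at both ages or at most -1 at both. Of 15167 IDs with a mean of at least 0.5 CPM, 50 met the rule as higher in Hartley (0.33%) and 21 as lower (0.138%). Another 5 of these IDs, 3 higher and 2 lower, are not covered here, which leaves 47 genes higher and 19 lower in Hartley.

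Polyadenylated RNA was sequenced from the cortex of 12 Dunkin Hartley guinea pigs, 6 at 15 months and 6 at 5 months of age, and of 16 Pigmented guinea pigs, 8 at 15 months and 8 at 5 months. Each combination of strain and age held as many females as males, 3 of each sex in Hartley and 4 of each sex in Pigmented. The labels name no transgene, treatment or diet for any group. No animal label occurs more than once, and each library is treated as its own animal.

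Dunkin Hartley is an outbred albino laboratory strain, so its animals are not genetically identical. Cortex is a mixture of excitatory and inhibitory neurons, astrocytes, oligodendrocytes, microglia and cells of blood vessels. Transcript levels of many genes are known to differ between strains of a species, because inherited sequence variants can change how much of a transcript is made or kept, and in an outbred strain animals may carry different variants of a gene.

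The files do not pair IDs with gene names, and 0 IDs could be matched to a symbol, so the genes are given by ID and nothing is said of what they encode. For the same reason the cortex label could not be checked against cell type markers. The suffix of an ID is the version of its gene model: 10 of the 47 higher genes (21.3%) and 12 of the 19 lower genes (63.2%) carried version 1, against 28.1% of all IDs at or above that floor.

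Library totals ranged from 17150437 to 41906016 counts. The genes were mostly of low level: the median of the mean CPM was 1.48 for those higher in Hartley (0.525 to 26.8) and 1.999 for those lower in Hartley (0.529 to 382.9), beside 22.9 for all IDs at or above 0.5 CPM on average. The column of Pigmented 15 months male replicate 2 was matched to its label by the animal number only, since the rest of its name is that of Pigmented 15 months female replicate 1, whose own column is also in the table. An animal number that differs only by its letter is shared by a Hartley female (5 months, replicate 2) and a Pigmented male (5 months, replicate 3).

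**Figure D1:**
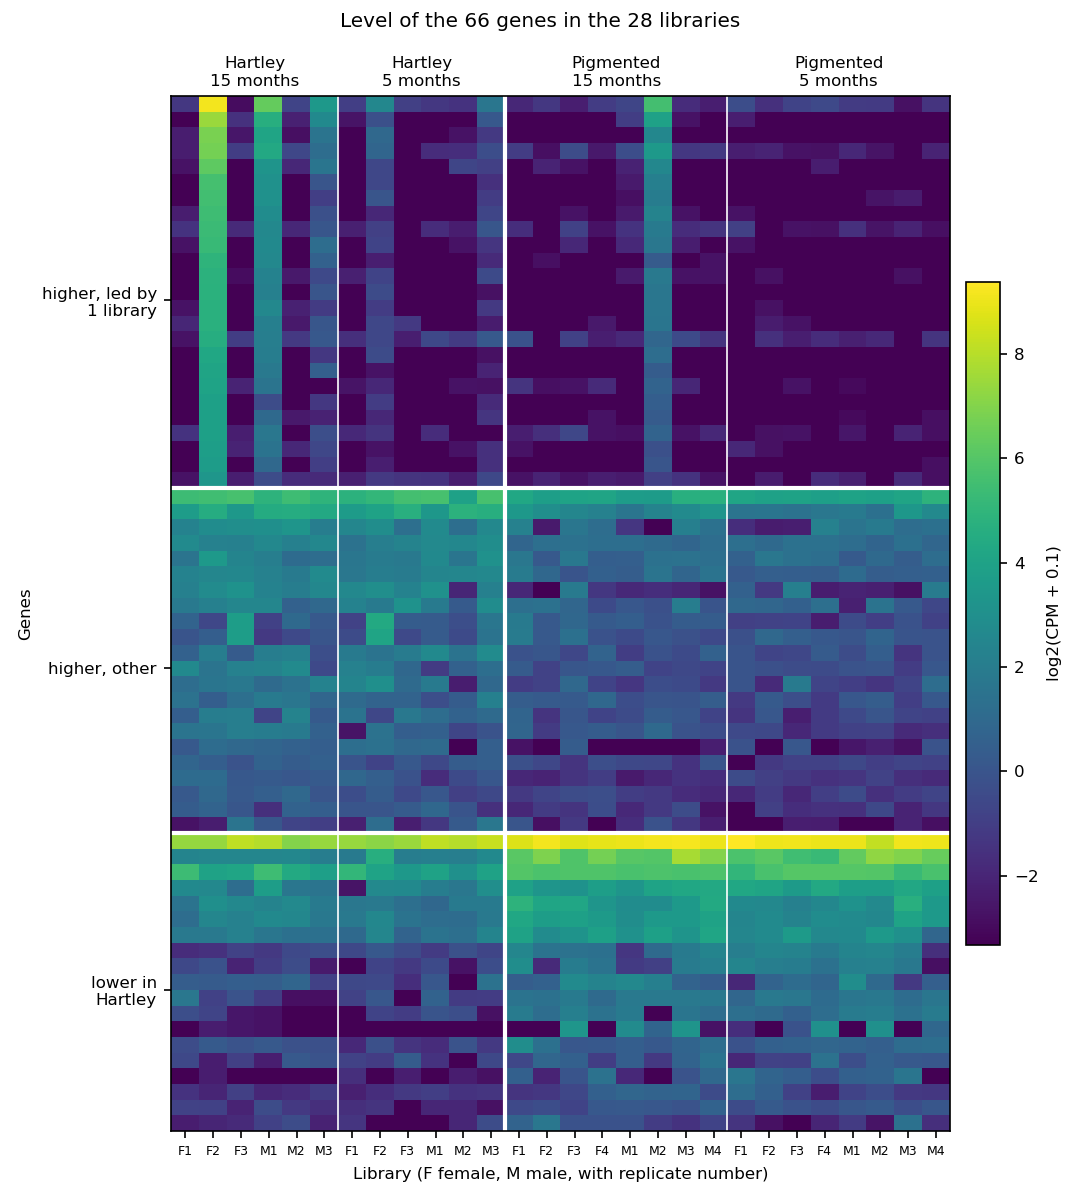
Level of each of the 66 genes (rows, as log2(CPM + 0.1)) in each of the 28 libraries (columns, Hartley left of Pigmented). The upper block of 25 genes is bright in Hartley 15 months female replicate 2. It is more weakly bright in Hartley 15 months male replicate 1 and Pigmented 15 months male replicate 2. Most genes of the lower 2 blocks differ between the strains in more animals, though some rest on a few.

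The genes higher in Hartley showed 2 patterns. In 25 of the 47, 1 library, Hartley 15 months female replicate 2, held more than 50% of the summed CPM of the 12 Hartley animals. In the other 22, and in the 19 genes lower in Hartley, the difference was spread over more animals. In bulk tissue, fewer cells of a type and less RNA per cell cannot be told apart.

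The 25 genes led by 1 library reached 10.004 to 565 CPM in Hartley 15 months female replicate 2 (median 27.02), which was 72.8% to 90.5% of the Hartley sum of each gene. Hartley 15 months male replicate 1 was next in 24 of the 25, at a median of 16.9% of the leading library's CPM (4.49% to 22.2%). Pigmented 15 months male replicate 2 came next after it in 21 of the 25, at a median of 8.53% (3.68% to 11.9%). The order was thus nearly the same in every one of these genes, and the library with the next highest levels after these Hartley animals was a Pigmented one.

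Weaker levels were seen in Hartley 15 months male replicate 3 (median 2.37% of the leading library), Hartley 5 months female replicate 2 (1.29%) and Hartley 5 months male replicate 3 (0.745%). In the remaining 22 libraries the highest level of any of the 25 genes was 0.819 CPM, and 66.2% of the values were 0 counts. The Hartley median was below 0.5 CPM in all 25 genes. The Hartley and Pigmented ranges overlapped in every one of the 25 genes, and 1 to 3 of the 12 Hartley animals lay above the highest Pigmented animal.

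Summed over the 25 genes, the level was 1547 CPM in Hartley 15 months female replicate 2, 243 CPM in Hartley 15 months male replicate 1 and 39.6 CPM in Hartley 15 months male replicate 3. Hartley 5 months female replicate 2 held 18.1 CPM and Hartley 5 months male replicate 3 held 11.98 CPM. The sum was 133 CPM in Pigmented 15 months male replicate 2 and between 0.648 and 2.80 CPM in the other 22 libraries of both strains. The leading library had 19691580 counts in all, near the median over libraries.

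**Figure D2:**
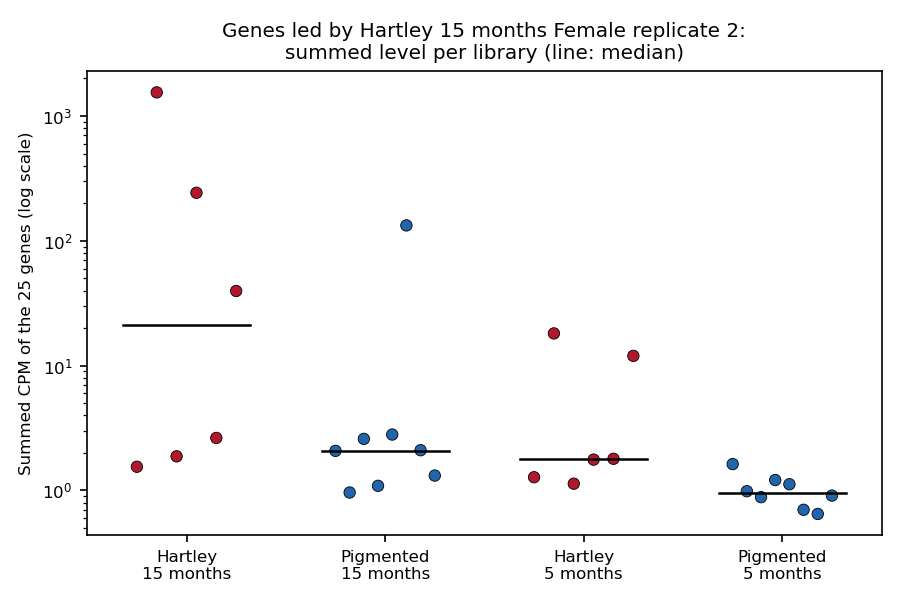
Summed CPM of the 25 genes led by Hartley 15 months female replicate 2 (log scale), 1 point per library, with the median of each group of strain and age as a line. The highest library stands at 1547 CPM, and the highest Pigmented library, at 133 CPM, lies above 10 of the 12 Hartley libraries.

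The 2-fold difference at 5 months rested on few reads in most of these genes. At 5 months the summed counts of a gene ran from 4 to 198 over the 6 Hartley libraries (median 15) and from 0 to 67 over the 8 Pigmented libraries (median 2). In 15 of the 25 genes the Hartley sum was at most 20 counts, and in 7 the Pigmented sum was 0.

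The most abundant of the 25 was ENSCPOG00000003072.4, an ID picked for its level. It had 0.0361 CPM in the lowest Hartley library and 565 CPM in the highest, against 0.0463 to 48.0 CPM in Pigmented. At 15 months it had 565, 83.4 and 10.7 CPM in the 3 highest Hartley animals and at most 0.502 CPM in the other 3. At 5 months it had 5.86 and 3.02 CPM in Hartley female replicate 2 and male replicate 3, and below 1 CPM in every other library of either strain.

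ENSCPOG00000011024.4 and ENSCPOG00000004043.4 had the largest ratios among the genes higher in Hartley and showed the same animals. ENSCPOG00000011024.4 ran from 0 to 30.8 CPM in Hartley and from 0 to 1.13 CPM in Pigmented, with a median of 0 in each strain. ENSCPOG00000004043.4 ran from 0 to 112 CPM in Hartley and from 0 to 5.84 CPM in Pigmented, where Pigmented 15 months male replicate 2 was the only library above 0. Both were at 0 counts in all 8 Pigmented libraries of 5 months: set against 3 counts over that group, their mean in Hartley at 5 months was at least 2.98-fold higher and at least 22.3-fold higher, from sums of 6 and 42 Hartley counts.

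The same library order reached beyond these genes. Among all IDs with a mean of at least 0.5 CPM, 42 had more than 50% of their sum over 28 libraries in Hartley 15 months female replicate 2, while each of the other 27 libraries led 0 to 2 IDs in that way. Hartley 15 months male replicate 1 was next highest in 38 of the 42, and Pigmented 15 months male replicate 2 came after it in 35. The 42 held all 25 genes described above, and the other 17 were at least 2-fold higher in Hartley at 15 months but not at 5 months.

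Without Hartley 15 months female replicate 2 the rule kept 33 genes higher in Hartley, 10 of them from the 25. Without the 3 libraries highest in the 25 genes (Hartley 15 months female replicate 2, Hartley 15 months male replicate 1 and Pigmented 15 months male replicate 2), a choice made after the levels were seen, it kept 29 genes higher in Hartley, of which 21 were among the 47 and 1 among the 25. The same omission left 21 genes lower in Hartley, 18 of them among the 19.

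**Figure D3:**
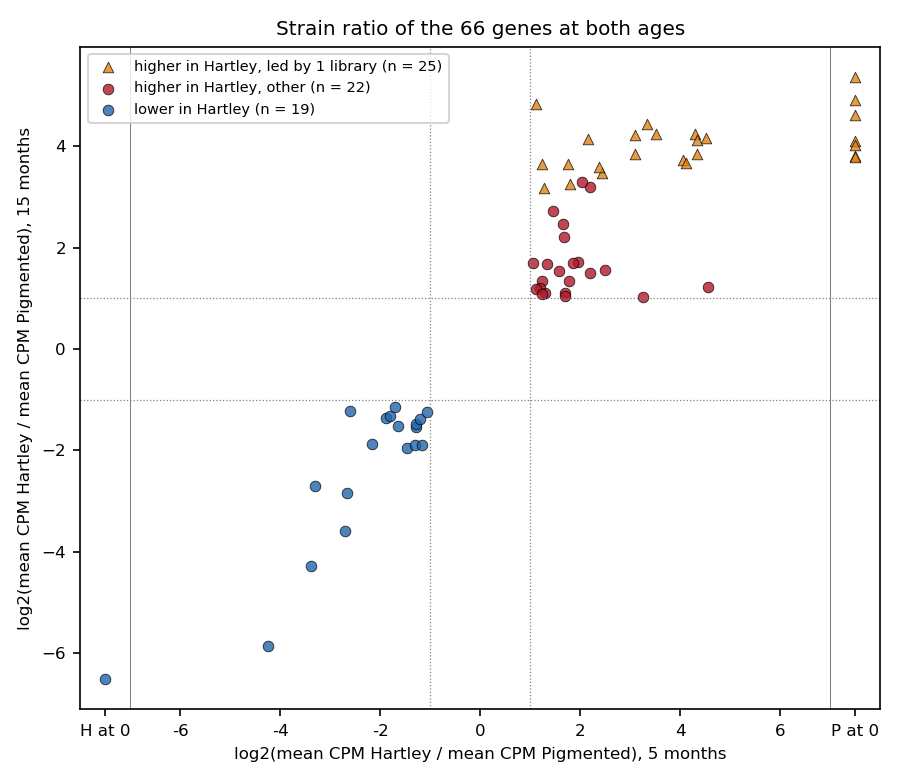
Log2(mean CPM Hartley / mean CPM Pigmented) at 5 months (horizontal axis) and 15 months (vertical axis) for each of the 66 genes, with dotted lines at 1 and -1. Genes at 0 counts in one strain at 5 months stand at the edges ("P at 0", 7 genes, and "H at 0", 1 gene), and the 25 genes led by 1 library lie between 3.18 and 5.37 at 15 months.

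The other 22 genes higher in Hartley had a median log2 ratio of 1.53 at 15 months (1.03 to 3.30) and 1.68 at 5 months (1.06 to 4.56). Their median level was 2.47 CPM in Hartley and 0.81 CPM in Pigmented (medians over genes of the strain medians). The 19 genes lower in Hartley had a median log2 ratio of -1.88 at 15 months and -1.81 at 5 months, with median levels of 0.549 CPM in Hartley and 3.14 CPM in Pigmented. All of these ratios come from the values that chose the genes and are given as a description.

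Ranges of the strains did not overlap in 2 of the 66 genes, 1 in each direction, beside 0.033% of all IDs with a mean of at least 0.5 CPM in the higher direction and 0.033% in the lower. Among the other 22 higher genes, 2 to 12 of the 12 Hartley animals lay above the highest Pigmented animal (median 8.5). In the same genes 0 to 16 of the 16 Pigmented animals lay below the lowest Hartley animal (median 7). Among the 19 lower genes, 0 to 12 Hartley animals lay below the lowest Pigmented animal (median 3). Counted from the other side, 5 to 16 Pigmented animals lay above the highest Hartley animal (median 12). The strain ranges thus overlapped in nearly every gene, in some of them through animals of only 1 strain.

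The edgeR quasi-likelihood test, fitted over 16026 genes with Benjamini-Hochberg adjustment and a threshold of 0.05, called 17 of the 66 between strains at 15 months: 7 higher and 10 lower in Hartley, with 0.206% and 0.181% of all tested genes called in those directions. At 5 months it called 14, of which 5 were higher and 9 lower, with 0.268% and 0.168% of all tested genes called. At both ages 12 genes were called, 4 higher and 8 lower, and 47 at neither. None of the 25 genes led by 1 library was called at either age by this test with all 28 libraries. DESeq2 called 4 of these 25 genes at 15 months and 12 at 5 months, with 0.512% and 1.44% of all tested genes called higher in Hartley. Since the rule used the same contrast, these counts are a description.

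ENSCPOG00000032256.1 was the gene with separate ranges in the higher direction. Its level was 2.67 CPM at the lowest, 5.38 at the median and 7.31 at the highest in Hartley, against 1.63, 2.26 and 2.58 CPM in Pigmented. All 12 Hartley animals lay above all 16 Pigmented animals, with a gap of less than 0.1 CPM between the lowest Hartley and the highest Pigmented animal. The log2 ratio was 1.34 at 15 months and 1.25 at 5 months.

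ENSCPOG00000013220.4 had separate ranges in the lower direction, and its ratio was the largest of the genes lower in Hartley that were counted in every animal. Hartley ran from 3.54 through a median of 5.30 to 24.4 CPM, and Pigmented from 39.2 through 74.5 to 212 CPM. Hartley 5 months female replicate 2, at 24.4 CPM, stood above the other 11 Hartley animals, which lay at or below 6.41 CPM. The log2 ratio was -4.29 at 15 months and -3.38 at 5 months.

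ENSCPOG00000039814.1, the most abundant of the 66, had 130, 175 and 313 CPM (lowest, median and highest) in Hartley and 293, 522 and 662 CPM in Pigmented. The ranges met in 1 Pigmented animal, 5 months male replicate 2 at 293 CPM, and 1 Hartley animal, 5 months male replicate 3 at 313 CPM. Its log2 ratio was -1.38 at 15 months and -1.21 at 5 months.

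ENSCPOG00000040109.1 had 8.12, 16.1 and 42.5 CPM in Hartley and 32.8, 56.7 and 65.9 CPM in Pigmented. The Hartley animals fell into 9 below the lowest Pigmented animal and 3 within the Pigmented range: 15 months male replicate 1 (42.5 CPM), 15 months female replicate 1 (41.7 CPM) and 5 months female replicate 1 (33.6 CPM). Only 2 of the 16 Pigmented animals were as low as these. This gene, like ENSCPOG00000039814.1 and the next 2, was chosen after its values were seen.

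ENSCPOG00000032859.1 had 10.6, 21.3 and 28.8 CPM in Hartley and 2.45, 4.86 and 10.9 CPM in Pigmented. Its overlap rested on 1 Pigmented animal, 15 months female replicate 1 at 10.9 CPM, and 15 of the 16 Pigmented animals lay below the lowest Hartley animal. ENSCPOG00000030429.1 had 3.19, 5.07 and 6.59 CPM in Hartley and 0.882, 1.35 and 3.82 CPM in Pigmented, and again the highest Pigmented value was that of 15 months female replicate 1.

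**Figure D4:**
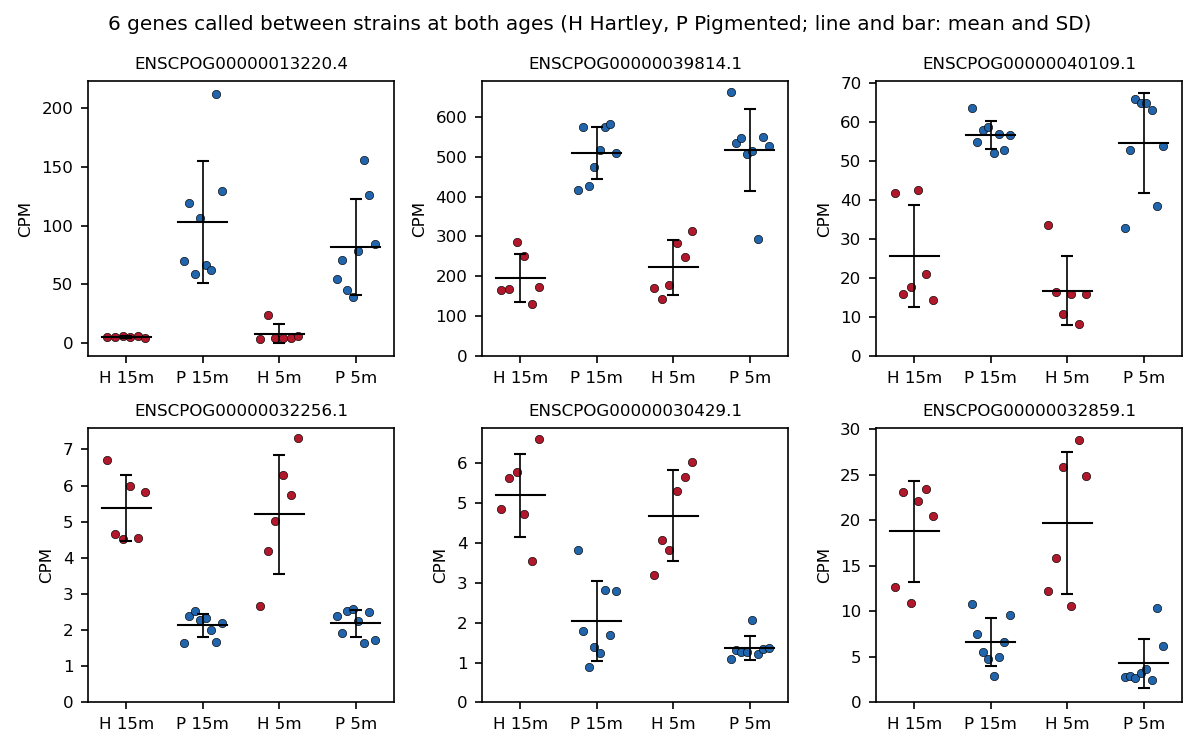
CPM of 6 genes that edgeR called between the strains at both ages, 1 point per animal, with the mean and SD of each group of strain and age (H Hartley, P Pigmented, 15m and 5m for the age in months). In ENSCPOG00000013220.4 the Pigmented points spread from 39.2 to 212 CPM above all Hartley points, while in ENSCPOG00000040109.1 3 Hartley animals lie among the Pigmented ones.

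Several genes were near 0 in some animals of a strain and well above it in the others. ENSCPOG00000009595.4, the gene with the largest ratio among those lower in Hartley, had at most 0.102 CPM in any Hartley animal and was at 0 counts in 9 of 12. In Pigmented it had 9.92, 9.50, 8.16, 8.08 and 6.84 CPM in 5 animals, 1.77 and 1.62 CPM in another 2, and at most 0.828 CPM in the other 9. The 5 highest animals were of both sexes and both ages. At 5 months it was at 0 counts in all 6 Hartley libraries, and set against 3 counts over that group the Hartley mean was at least 90.2-fold lower than the Pigmented mean.

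ENSCPOG00000026955.2, ENSCPOG00000040233.1 and ENSCPOG00000036731.1 were lower in Hartley, and their rows lie within 16 rows of the table. ENSCPOG00000040233.1 had 0, 0.439 and 0.813 CPM in Hartley and 0.0455, 3.82 and 7.48 CPM in Pigmented. Its Pigmented animals fell into 12 at or above 2.58 CPM and 4 at or below 0.432 CPM, inside the Hartley range. These 4 were 15 months female replicate 2 (0.183 CPM), 15 months male replicates 1 and 2 (0.351 and 0.432 CPM) and 5 months male replicate 4 (0.0455 CPM).

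The same 4 Pigmented animals were the lowest in ENSCPOG00000026955.2, with at most 0.175 CPM against at least 0.707 CPM in the other 12, while Hartley had at most 0.232 CPM. In ENSCPOG00000036731.1 only 2 of the 4, 5 months male replicate 4 (0.227 CPM) and 15 months male replicate 1 (0.307 CPM), fell into the Hartley range of 0.206 to 1.03 CPM. The other 2 had 2.80 and 1.9996 CPM.

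ENSCPOG00000024246.2 and ENSCPOG00000006492.4, in neighbouring rows, were higher in Hartley in a mirror image of this. ENSCPOG00000024246.2 had 0.158, 5.32 and 8.73 CPM in Hartley and 0, 0.17 and 4.31 CPM in Pigmented. Hartley 5 months male replicate 2 was the low one, and the other 11 Hartley animals had at least 4.10 CPM. Pigmented 5 months female replicate 3, 5 months male replicate 4 and 15 months female replicate 3 had 4.31, 3.78 and 3.64 CPM, 5 months female replicate 1 had 1.46 CPM, and the other 12 Pigmented animals had at most 0.329 CPM.

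ENSCPOG00000006492.4 separated the same animals. It was at 0 counts in Hartley 5 months male replicate 2 and had 1.08 to 2.60 CPM in the other 11 Hartley animals. In Pigmented it had 0.813 to 1.21 CPM in the same 4 animals and at most 0.117 CPM in the other 12. ENSCPOG00000002481.4, in a row far from these, was also lowest in Hartley 5 months male replicate 2 (0.105 CPM) and highest among Pigmented animals in the same 4, at 0.867 to 3.64 CPM.

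**Figure D5:**
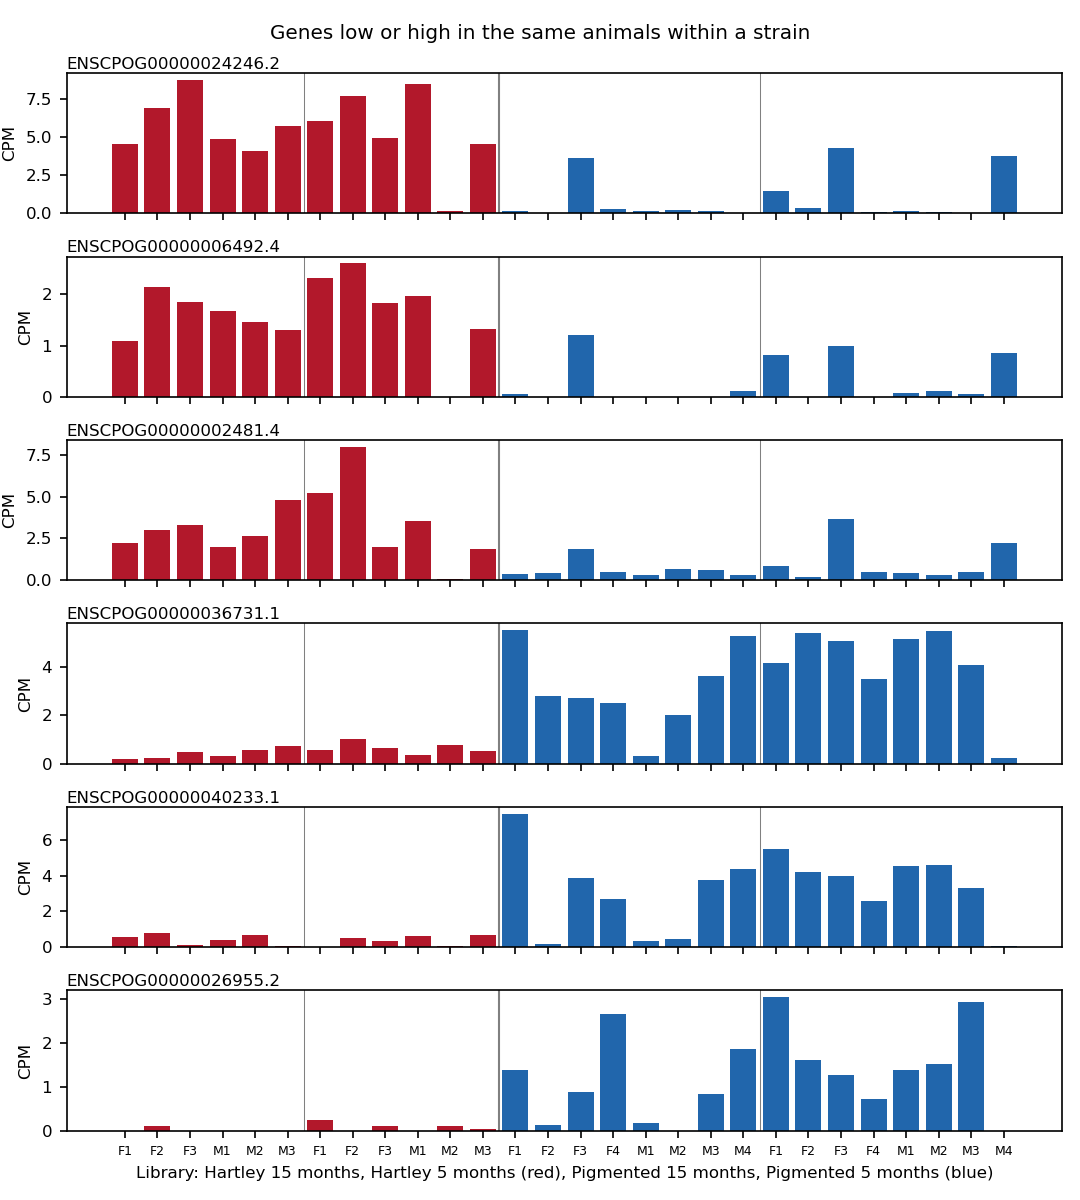
CPM of 6 genes in each of the 28 libraries (bars, Hartley in red left of Pigmented in blue, F and M with the replicate number). In the upper 3 genes Hartley 5 months M2 is the low Hartley animal and the same 4 Pigmented animals are high, and in the lower 3 genes Pigmented 5 months M4 and Pigmented 15 months M1 are low.

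ENSCPOG00000007345.4 had 2.32, 6.39 and 9.78 CPM in Hartley and 0, 2.34 and 4.70 CPM in Pigmented. Here 6 Pigmented animals lay at or below 0.307 CPM and 10 at or above 2.20 CPM, and 4 of the 6 low ones (5 months female replicate 2, 15 months female replicate 2, 15 months male replicate 1 and 15 months male replicate 2) were not among the 4 animals that were high in the 3 genes just described. No Hartley animal was below 2.32 CPM.

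Pooled over the 41 genes not led by 1 library, each animal was set beside the median of its own strain and of the other on the log2(CPM + 0.1) scale. A Hartley animal lay nearer the Pigmented median in 4 to 11 of the 41 genes (median 6), and a Pigmented animal nearer the Hartley median in 2 to 12 (median 6.5). Hartley 5 months male replicate 2 had the 11, all of them genes higher in Hartley. Pigmented 15 months female replicate 1 had the 12, of which 8 were genes higher in Hartley, and Pigmented 5 months male replicate 4 had 11. None of the 41 genes had every animal nearer its own strain.

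ENSCPOG00000003385.4, the most abundant of the 47 higher genes, shows some of these animals at a well counted level. It had 15.2, 42.3 and 51.7 CPM in Hartley and 12.4, 16.1 and 29.4 CPM in Pigmented. Hartley 5 months male replicate 2, at 15.2 CPM, was the lowest Hartley animal, and Pigmented 5 months male replicate 4, at 29.4 CPM, was the highest Pigmented animal. The next lowest Hartley animal had 28.4 CPM and the next highest Pigmented animal 26.1 CPM. Pigmented 15 months female replicate 1 had 18.6 CPM, within the range of the other Pigmented animals.

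ENSCPOG00000010596.4 and ENSCPOG00000005406.4 were carried by 2 Hartley females. Hartley 15 months female replicate 3 and 5 months female replicate 2 had 13.1 and 20.998 CPM of ENSCPOG00000010596.4, and the other 10 Hartley animals had 0.444 to 3.06 CPM, inside the Pigmented range of 0.101 to 3.71 CPM. For ENSCPOG00000005406.4 the same females had 13.2 and 16.7 CPM, the other Hartley animals 0.333 to 2.73 CPM and the Pigmented animals 0.603 to 3.82 CPM. These 2 animals held 73.7% and 75.5% of the Hartley sums, and 7 IDs with a mean of at least 0.5 CPM had the same 2 libraries as their highest, with more than 50% of the Hartley sum. In both genes Pigmented 15 months female replicate 1 was the highest Pigmented animal.

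The threshold fell within a continuous range of ratios. ENSCPOG00000010596.4 was the higher gene just inside it, with log2 ratios of 1.03 at 15 months and 3.26 at 5 months, and the ID just outside had 3.44 and 0.99. On the lower side the gene just inside had -1.24 at 15 months and -1.07 at 5 months, and the ID just outside had -1.38 and -0.99. With the smaller ratio of the 2 ages between 0.8 and 1, 17 IDs stood just outside in the higher direction and 13 in the lower, beside 8 and 3 genes with a smaller ratio between 1 and 1.2.

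Females and males alone gave lists that were shared in part. Applied to the females, the rule kept 56 IDs higher and 23 lower in Hartley, and applied to the males 41 higher and 24 lower. In both lists were 25 of the higher IDs, or 44.6% of the female and 61.0% of the male list, and 15 of those 25 belonged to the genes led by 1 library. In both were 10 of the lower IDs, or 43.5% of the female and 41.7% of the male list. All 35 shared IDs were among the 66. This follows from the rule, because each strain and age held as many females as males, and nothing is read from it.

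Age, averaged over both strains and sexes, does not enter the strain ratios of the rule, but the floor of 0.5 CPM on the mean over all libraries touches it. Over the 14 libraries of 5 months, 24 of the 25 genes led by 1 library had a mean below that floor, so they passed it through libraries of 15 months and their direction with age was set by the choice. Of the other 41 genes, 1 had a mean below the floor at 5 months. None of the 66 genes passed the adjusted threshold for 15 months minus 5 months with edgeR, where 0% of all tested genes did. At an unadjusted p under 0.05 there were 15 of the 66 (22.7%), beside 12% of all tested genes, and all 15 were higher at 15 months, beside 6.22% of all tested genes in that direction. Of the 15, 9 belonged to the genes led by 1 library, whose 3 highest libraries are all of 15 months. DESeq2 called 12 of the 66 for age, 10 of them led by 1 library, beside 0.374% of all tested genes. Since the led genes make up most of both counts, the counts are a description and nothing is read from them or from their direction.

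Without those 3 libraries edgeR called 0 of the 54 genes still tested for age, and 4 had an unadjusted p under 0.05. Leaving out Hartley 5 months female replicate 2 alone gave 1 call, of ENSCPOG00000005105.4 (adjusted p = 0.0438 with edgeR).

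ENSCPOG00000005105.4 also had the smallest p for age with all 28 libraries. It had 0.367, 1.57 and 4.19 CPM (lowest, median and highest) at 15 months and 0.058, 0.497 and 2.66 CPM at 5 months. The groups of age overlapped, and in both strains most animals of 15 months lay above most of 5 months. The log2 difference was 1.46 (SE 0.31, edgeR adjusted p = 0.142), and over the other settings tried the adjusted p ran from 0.00253 with DESeq2 to 0.438.

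ENSCPOG00000005596.4, one of the 25 genes led by 1 library, whose direction with age was set by the choice, came next with a log2 difference of 3.62 (SE 0.88, edgeR adjusted p = 0.224). Its level ran from 0 to 14.5 CPM at 15 months and from 0 to 0.271 CPM at 5 months, and the 3 highest animals of 15 months were those named above, at 14.5 and 3.22 CPM in Hartley and 1.57 CPM in Pigmented. In the other direction ENSCPOG00000039733.1 had 0, 1.46 and 4.30 CPM at 15 months and 0, 1.70 and 4.08 CPM at 5 months, with a log2 difference of -1.08 (SE 0.55, edgeR adjusted p = 0.428). ENSCPOG00000026955.2 had a log2 difference of -1.63 (SE 1.02, edgeR adjusted p = 0.51), and its medians were 0.12 CPM at 15 months and 0.47 CPM at 5 months.

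Sex, averaged over both strains and ages, does not enter the strain ratios of the rule. None of the 66 genes passed the adjusted threshold for females minus males with edgeR, where 0.0499% of all tested genes did, and DESeq2 called 0. At an unadjusted p under 0.05 there were 3 of the 66, all higher in females and 0 of them led by 1 library, beside 5.67% of all tested genes. ENSCPOG00000005406.4 led these with a log2 difference of 1.66 (SE 0.46, edgeR adjusted p = 0.595), and its 2 highest animals were the Hartley females described above, whose levels also set its strain ratio. It had 0.593, 1.16 and 16.7 CPM in females and 0.333, 0.872 and 2.73 CPM in males. Without Hartley 15 months female replicate 2, edgeR gave 10 of the 66 at an unadjusted p under 0.05 for sex. Of these 10, 3 were higher and 7 lower in females, and 6 belonged to the genes led by 1 library.

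ENSCPOG00000012661.4 had 0.138, 0.536 and 2.08 CPM in females and 0.0877, 0.274 and 1.13 CPM in males. The log2 difference was 0.69 (SE 0.25, edgeR adjusted p = 0.775), and the sexes overlapped widely. Towards males, ENSCPOG00000003248.4 had medians of 0.166 CPM in females and 0.368 CPM in males, with a log2 difference of -1.01 (SE 0.57, edgeR adjusted p = 0.775). ENSCPOG00000032859.1 had medians of 9.22 CPM in females and 10.01 CPM in males, with a log2 difference of -0.38 (SE 0.22, edgeR adjusted p = 0.775).

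The difference of the sex effect between Hartley and Pigmented was past the adjusted threshold in none of the 66 genes with edgeR or DESeq2, where 0% of all tested genes passed it with edgeR. At an unadjusted p under 0.05 edgeR gave 4 of the 66, 0 of them led by 1 library, beside 2.8% of all tested genes. The limit given for sex holds here too, as the leading library is a Hartley female. ENSCPOG00000013220.4 had the smallest p, with a log2 difference of 1.33 (SE 0.49, edgeR adjusted p = 0.99994). Its medians were 5.30 CPM in females and 5.01 CPM in males of Hartley, and 64.7 CPM in females and 106 CPM in males of Pigmented. The highest Hartley female was 5 months replicate 2, at 24.4 CPM.

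ENSCPOG00000023019.2 followed with 1.60 (SE 0.68), from medians of 0.665 CPM in females and 0.373 CPM in males of Hartley and of 2.65 CPM in females and 3.28 CPM in males of Pigmented. In the other direction ENSCPOG00000032256.1 had -0.51 (SE 0.23), from medians of 4.59 CPM in females and 5.91 CPM in males of Hartley and of 2.38 CPM in females and 2.10 CPM in males of Pigmented. ENSCPOG00000039814.1 had -0.32 (SE 0.23). Their edgeR adjusted p also rounded to 1.

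The rows directly before and after the 66 genes in the deposited table were also examined. The order of rows does not follow the ID number (50.02% of neighbouring rows have rising numbers), its meaning is not stated in the table, and no genome position is taken from it. These adjoining rows numbered 128, of which 68 had a mean of at least 0.5 CPM. Of the 68, 11 (16.2%) met the rule in the same direction as the gene beside them, where 0.33% and 0.138% of all such rows met it in each direction, and all 11 were among the 66 genes.

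The 11 formed 4 runs. Rows 4811 to 4814 held 4 genes led by 1 library and rows 23590 to 23592 held 3, so that 7 of the 11 showed the library pattern. Rows 26593 and 26594 held the pair ENSCPOG00000024246.2 and ENSCPOG00000006492.4 described above. Rows 9245 and 9246 held ENSCPOG00000038606.1 and ENSCPOG00000014463.4, both lower in Hartley.

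ENSCPOG00000038606.1 had 1.77, 3.64 and 8.02 CPM in Hartley and 4.47, 9.19 and 29.7 CPM in Pigmented, and ENSCPOG00000014463.4 had 2.11, 3.41 and 6.50 CPM in Hartley and 5.08, 11.4 and 18.7 CPM in Pigmented. In both genes Pigmented 15 months female replicate 1 was the highest animal, with 29.7 and 18.7 CPM, and Pigmented 5 months male replicate 3 was the highest animal of 5 months, with 25.3 and 16.1 CPM. These 2 animals were also the 2 highest Pigmented animals in ENSCPOG00000032859.1, which is higher in Hartley and lies 12 rows before them, at 10.9 and 10.4 CPM.

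Within 20 rows of another of the 66 lay 22 genes, in 8 clusters of 2 to 4. In 7 of the 8 clusters all genes pointed the same way. The exception was the cluster of rows 9233 to 9253, which held ENSCPOG00000032859.1, higher in Hartley, and 3 genes lower in Hartley, among them ENSCPOG00000023019.2. Several of the 7 clusters held only genes led by 1 library, which were all taken from the genes higher in Hartley. Most of the 66 genes, 47 of them, were also higher in Hartley. A shared direction was therefore partly set by the choice of genes, and nothing is read from the count of 7.

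The other 57 adjoining rows with a mean of at least 0.5 CPM did not belong to the 66. Of these, 18 (31.6%) had the sign of the gene beside them at both ages, where 21.4% of all rows at that level were higher in Hartley at both ages and 25.7% lower. In the direction of the gene beside them edgeR called 2 of the 57 at 15 months and 2 at 5 months, and it called 1 in the opposite direction at 5 months.

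ENSCPOG00000037004.1, beside ENSCPOG00000040109.1, was the clearest of these. It had 18.9, 23.4 and 27.5 CPM in Hartley and 30.4, 33.7 and 39.8 CPM in Pigmented, and the ranges did not overlap. Its log2 difference was -0.59 at 15 months (SE 0.10, edgeR adjusted p = 0.00262) and -0.49 at 5 months (SE 0.10, edgeR adjusted p = 0.0119), so it differed between the strains in all animals while its fold stayed below the rule.

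ENSCPOG00000002427.4, beside ENSCPOG00000032859.1, had 12.5, 27.2 and 48.4 CPM in Hartley and 7.53, 11.8 and 28.1 CPM in Pigmented. The strains overlapped, and the log2 difference was 0.97 at 15 months (SE 0.28, edgeR adjusted p = 0.174) and 1.18 at 5 months (SE 0.28, edgeR adjusted p = 0.0632). ENSCPOG00000003489.4, between 2 genes led by 1 library, ran from 0 to 53.3 CPM in Hartley and from 0 to 7.08 CPM in Pigmented, with medians of 0.354 and 0.228 CPM in that order. ENSCPOG00000035598.1, beside a gene lower in Hartley, had medians of 3.44 CPM in Hartley and 3.60 CPM in Pigmented, and neither of these 2 rows was called at either age.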

How the data were processed

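Per the labels' protocols, Trizol and spin columns gave the RNA, and TruSeq kits (Illumina) the polyA libraries. The values are raw counts of reads per gene ID for 28 libraries, as deposited by the authors. STAR and DESeq2 are named in the submitters' processing notes, without versions. For genome build, annotation and strand setting, no source used here gives a value, so antisense partners and near-identical copies are uncertain. Columns were matched to labels by animal number, 1 of them by that number alone. All 36 replicate pairs differed by more than counting noise (chi-square per degree of freedom 6.77 to 124).

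CPM used column totals. Genes passing filterByExpr (minimum count 10, minimum total 15) over the 8 groups of strain, age and sex, 16026 in all, were fitted in R 4.3.3 with edgeR 4.0.16 (TMM, robust quasi-likelihood F-test, 1 mean per group) and Benjamini-Hochberg adjustment over all tested genes. All 66 genes passed this filter, which a high level in 1 group is enough for. The code was tested on simulated data. DESeq2 1.42.0, limma 3.58.1 (voom) and other filters, scalings and covariates were alternatives, as was leaving out each library.

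The genes and lists were chosen with earlier results of these data known. IDs named by rule are, per direction, the 2 with the largest smaller ratio for strain, the 2 with the smallest p for age, sex and sex by strain, and 2 adjoining rows. The other 13 IDs, and 2 of these beside the rule, were chosen after their values were seen. A count of 3 over a group is the floor for folds against 0 and covers counting error only, as reads carry no molecular identifiers.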

Additional observations from a re-analysis of the deposited data

Results flagged for a closer look

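A sample was marked where its gap to the nearest of the other animals of its group, over the range of the group, passed Dixon's critical value. It was applied only to the 4 Pigmented groups, which hold 4 animals each, so no Hartley animal could be marked. Of 116 combinations of 29 measures and 4 groups, 24 were marked. For independent measures chosen without regard to their values, chance would mark about 1 in 20 (5.8). Many of these measures were chosen after their values were seen, and several stand apart in the same animals. The 24 can therefore not be set against the 5.8, and the marks are a description.

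Pigmented 15 months male replicate 2 stood above the 3 other males of its group at 133 CPM for the sum of the 25 genes led by 1 library (others 1.32 to 2.80 CPM). The same animal was marked at 48.0 CPM of ENSCPOG00000003072.4 (others 0.11 to 0.526 CPM), 5.84 CPM of ENSCPOG00000004043.4, 1.57 CPM of ENSCPOG00000005596.4 and 1.13 CPM of ENSCPOG00000011024.4. Without this animal the rule kept 48 genes higher in Hartley, 44 of them among the 47, and 19 lower, the same 19 genes.

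Pigmented 5 months male replicate 4 was marked at 3.78 CPM of ENSCPOG00000024246.2 (others 0.0463 to 0.143 CPM), 0.864 CPM of ENSCPOG00000006492.4, 2.23 CPM of ENSCPOG00000002481.4 and 29.4 CPM of ENSCPOG00000003385.4. Pigmented 15 months female replicate 3 was marked in the same first 3 genes, at 3.64, 1.21 and 1.87 CPM, and at 9.92 CPM of ENSCPOG00000009595.4, at 0 in the other 3 females. These are levels at or near those of Hartley, except for ENSCPOG00000009595.4, which Hartley animals nearly lack.

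Pigmented 5 months female replicate 4 was marked at 8.08 CPM of ENSCPOG00000009595.4, 4.65 CPM of ENSCPOG00000007345.4 and 0.101 CPM of ENSCPOG00000010596.4. Pigmented 5 months male replicate 2 was low at 293 CPM of ENSCPOG00000039814.1 (others 514 to 551 CPM) and high at 1.63 CPM of ENSCPOG00000005406.4. Pigmented 5 months male replicate 3 had 2.55 CPM of ENSCPOG00000003248.4, and male replicate 1 of that group had 2.08 CPM of ENSCPOG00000030429.1. Pigmented 15 months female replicate 1 had 5.52 CPM of ENSCPOG00000036731.1, and Pigmented 15 months male replicate 2 was low at 0.811 CPM of ENSCPOG00000010596.4. At levels of a few counts, Pigmented 15 months female replicate 2 was marked at 0.0458 CPM of ENSCPOG00000011024.4 and Pigmented 15 months male replicate 4 at 0.11 CPM of ENSCPOG00000006492.4.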

How the results depend on the processing

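The count of genes by the rule was 47 higher and 19 lower in Hartley. With no floor on the mean it was 236 and 125, and without the 3 libraries named above 29 were higher. Leaving out each library in turn gave 33 to 60 higher (60 without Pigmented 15 months female replicate 1) and 18 to 23 lower, and 2 to 4 genes with separate ranges. Adjoining rows that met the rule were 17 with a floor of 0.1 CPM and 8 to 12 when each library was left out, 8 without Hartley 15 months female replicate 2.

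Genes called for strain at 15 months numbered 17, but 29 with DESeq2 and 10 without the 3 libraries. Leaving out each library gave 12 (without Hartley 15 months male replicate 2) to 26 (without Pigmented 15 months male replicate 2). Of those 26 genes, 10 were led by 1 library. At 5 months the genes called for strain numbered 14, but 43 with DESeq2 and 9 with the labels' sample-sheet number in the model. Leaving out each library gave 8 (without Hartley 5 months female replicate 3) to 27 (without Hartley 5 months male replicate 1). For age the count was 0, 12 with DESeq2 and 0 to 1 leaving out a library. For sex and sex by strain it was 0 in every setting. The cause of these shifts was not tested.

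Of the values of named IDs under other settings, 115 lost their call and 43 gained one. ENSCPOG00000040109.1 at 15 months lost its call in 21 of 37 settings. ENSCPOG00000038606.1 lost it in 22 of 37 at 5 months and 23 of 37 at 15 months. Another 4 values turned sign, none of them called. The log2 difference of ENSCPOG00000003489.4 was -0.54 at 15 months without the 3 libraries, and at 5 months it ran from -0.083 (without Hartley 5 months female replicate 3) to 0.73 when each library was left out. That of ENSCPOG00000035598.1 at 5 months ran from -1.01 to 0.39 (without Pigmented 5 months male replicate 1), and that of ENSCPOG00000010596.4 at 15 months from -0.39 (without Hartley 15 months female replicate 3) to 1.003. The labels name no pairs of animals, so no paired analysis was run. They carry no replicate numbers, and the numbers used here follow accession order. At the low levels of most of these genes, differences within a strain below a few counts cannot be resolved.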
